A study of Mus musculus with 20 samples.

Results

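Facilitative sugar carriers of the SLC2 family and ketohexokinase were followed at the mRNA level in inguinal white adipose tissue (iWAT) and brown adipose tissue (BAT) of mice that had lost α4 in adipocytes. The 9 genes, Slc2a1, Slc2a3, Slc2a4, Slc2a5, Slc2a6, Slc2a8, Slc2a10, Slc2a12 and Khk, were taken by symbol from a table of 25219 genes, and all 9 were present and passed the filter on low counts in both tissues. The 8 carriers are 8 of the 12 SLC2 genes in that table. α4 is encoded by Igbp1 and binds the catalytic subunits of PP2A-type phosphatases. Ai-α4KO males carried floxed α4 alleles and the Adiponectin-CreERT2 transgene, in which the Adiponectin promoter drives a tamoxifen-dependent Cre in adipocytes and leaves the other cells of the depot unrecombined. Control males carried floxed alleles without CreERT2, although the library labels call them WT. All animals, Controls included, received 5 intraperitoneal injections of tamoxifen at 100 mg/kg over 6 days from 2 months of age, and RNA was taken 1 week after recombination. The strain background was mixed C57Bl/6. Each of the 4 groups of tissue and genotype had 5 libraries, and from the labels it is not known if a mouse gave tissue from both depots.

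The libraries held 24023371 to 50384446 counts. Levels are given as CPM, counts scaled to library size with TMM normalization over all 20 libraries, and comparisons between genes use the deposited FPKM, which is scaled by transcript length. A gene was called changed at an adjusted p below 0.01 in edgeR's quasi-likelihood test together with a fold change of at least 2. Igbp1 fell from 67.2 ± 7.01 to 10.8 ± 0.393 CPM in iWAT (SD, n = 5 each) and from 93.9 ± 7.29 to 17.0 ± 4.82 CPM in BAT (SD, n = 5 each). The cell types of the depots moved as well. Of 14 adipocyte markers 13 fell in Ai-α4KO iWAT and 11 in BAT, and their summed level went from 35622 to 46992 CPM over the Control iWAT libraries to 13657 to 19559 CPM over the Ai-α4KO ones. Of 12 macrophage markers 11 rose in iWAT and 12 in BAT, and in BAT their summed level went from 321 to 717 CPM in Control to 5288 to 8678 CPM in Ai-α4KO libraries. In these bulk samples fewer cells of a type and less RNA per cell cannot be told apart. Endothelial markers (mean log2 CPM of 8 genes) were lower without overlap after α4 loss, from 5.60 to 6.16 down to 4.59 to 4.98 in iWAT and from 6.50 to 7.15 down to 5.20 to 5.67 in BAT. Neutrophil markers (mean log2 CPM of 7 genes) went from 0.594 to 1.89 up to 4.01 to 5.15 in BAT and from a mean of 2.69 to one of 4.64 in iWAT, where the highest Control library overlapped the lowest Ai-α4KO one. Fibroblast and progenitor markers (mean log2 CPM of 7 genes) ran from 6.12 to 7.19 in Control BAT and from 7.42 to 7.96 in Ai-α4KO BAT, and overlapped in iWAT. Epithelial markers set Control iWAT libraries 1 and 4 and Ai-α4KO iWAT libraries 1 and 2 apart, at 1.32 to 3.36 against at most -1.73 (mean log2 CPM of 6 genes) in the other libraries. Control iWAT libraries 1 and 4 also stood apart by B cell markers, with a mean log2 CPM of 5.66 and 4.32 against at most 0.757 in the other iWAT libraries. Skeletal muscle markers ran from 6.34 to 9.72 (mean log2 CPM of 12 genes) in Control BAT and from 10.2 to 11.97 in Ai-α4KO BAT, with no overlap.

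SLC2 proteins let hexoses cross a membrane down their gradient, and the number of carriers at the surface sets how fast a fat cell can take up sugar. GLUT4, the product of Slc2a4, waits in internal vesicles of adipocytes and muscle fibres and moves to the surface when insulin is present. GLUT1 supplies glucose without insulin, GLUT5 carries fructose, and ketohexokinase traps fructose inside the cell by phosphorylation.

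The promoters of the carrier that fell most in both depots, Slc2a5, and of the carrier that rose most, Slc2a6, are shown as the 250 bases before the RefSeq start site (GRCm38.p6, 5′ to 3′ on the gene's strand). Slc2a5 lies on chromosome 4 from 150119344 to 150144168 on the plus strand, and its window is chr4:150119094-150119343. Slc2a6 lies on chromosome 2 from 27021365 to 27027998 on the minus strand, and its window is chr2:27027999-27028248. Capitals mark the matches to the motifs listed after the sequences.
Slc2a5: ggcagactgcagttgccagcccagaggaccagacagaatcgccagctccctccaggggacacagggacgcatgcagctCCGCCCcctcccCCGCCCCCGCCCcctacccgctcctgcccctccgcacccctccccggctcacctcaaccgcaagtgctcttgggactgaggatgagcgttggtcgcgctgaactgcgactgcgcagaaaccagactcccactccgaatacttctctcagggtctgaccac
Slc2a6: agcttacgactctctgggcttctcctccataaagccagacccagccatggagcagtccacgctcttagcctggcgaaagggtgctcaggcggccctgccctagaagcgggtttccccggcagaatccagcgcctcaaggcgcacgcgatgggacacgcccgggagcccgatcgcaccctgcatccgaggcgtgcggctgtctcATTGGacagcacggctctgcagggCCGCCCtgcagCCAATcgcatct

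Motifs were searched on both strands. The E-box was read as CACGTG, which MYC and ChREBP-type factors can bind. The GC box, a site for Sp1-type factors, was read as GGGCGG. The CCAAT box was read by the letters of its name and the TATA box as TATAAA. The AP-1 site was read as TGANTCA and the cyclic AMP element, or CRE, as TGACGTCA, and an NF-kB site was searched as well. Promoters of 7 of the 9 genes were at hand, and those of Slc2a3 and Slc2a4 were not used here. The Slc2a5 window held the GC box at 3 places, from base -172 to base -149 before the start site. In the Slc2a6 window the CCAAT box stood at bases -47 to -43 and -12 to -8, and 1 GC box lay between them at bases -23 to -18. Both motifs are common, since 32.7% of 32851 promoters of the same length held a GC box and 33.8% a CCAAT box. A GC box was also found before Slc2a1, Slc2a10 and Khk, and a CCAAT box before Slc2a8 and Slc2a10. The Khk window held the only E-box of the 7, a motif in 6.02% of all promoters, and the Slc2a12 window held none of the motifs. The RefSeq start site used for Khk, at 30921559, lies 336 bases before the gene start of 30921895 given below. No window held an AP-1 site (6.75% of all promoters), an NF-kB site (0.356%), a TATA box (12.4%) or a CRE (1.55%). A pair of CCAAT matches in the Slc2a8 window, at bases -148 to -144 and -145 to -141, overlapped, and no other matches did.

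Slc2a4 made up most of the carrier mRNA in Control fat. Its FPKM was 120.5 ± 10.3 in Control iWAT and 189 ± 14.3 in Control BAT (SD, n = 5 each), far above Slc2a5, the next gene, at 14.6 ± 3.08 and 14.8 ± 7.87. In Control iWAT the FPKM order continued with Slc2a8 at 10.1, Khk at 8.50, Slc2a1 at 4.31, Slc2a3 at 3.11, Slc2a12 at 1.32, Slc2a10 at 0.897 and Slc2a6 at 0.837. The libraries of Slc2a5 and Slc2a8, of Slc2a8 and Khk, of Slc2a1 and Slc2a3, of Slc2a12 and Slc2a10, and of Slc2a10 and Slc2a6 overlapped, so the order of these neighbours is within the spread of the libraries. Control BAT had the order Slc2a4, Slc2a5, Slc2a8, Khk, Slc2a1, Slc2a12, Slc2a3, Slc2a10 and Slc2a6, in which Slc2a4, Slc2a1 and Slc2a10 each lay above the next gene without overlap, as did Khk over Slc2a1. Slc2a6 was last at an FPKM of 0.120 ± 0.0824 (SD, n = 5).

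**Figure D1:**
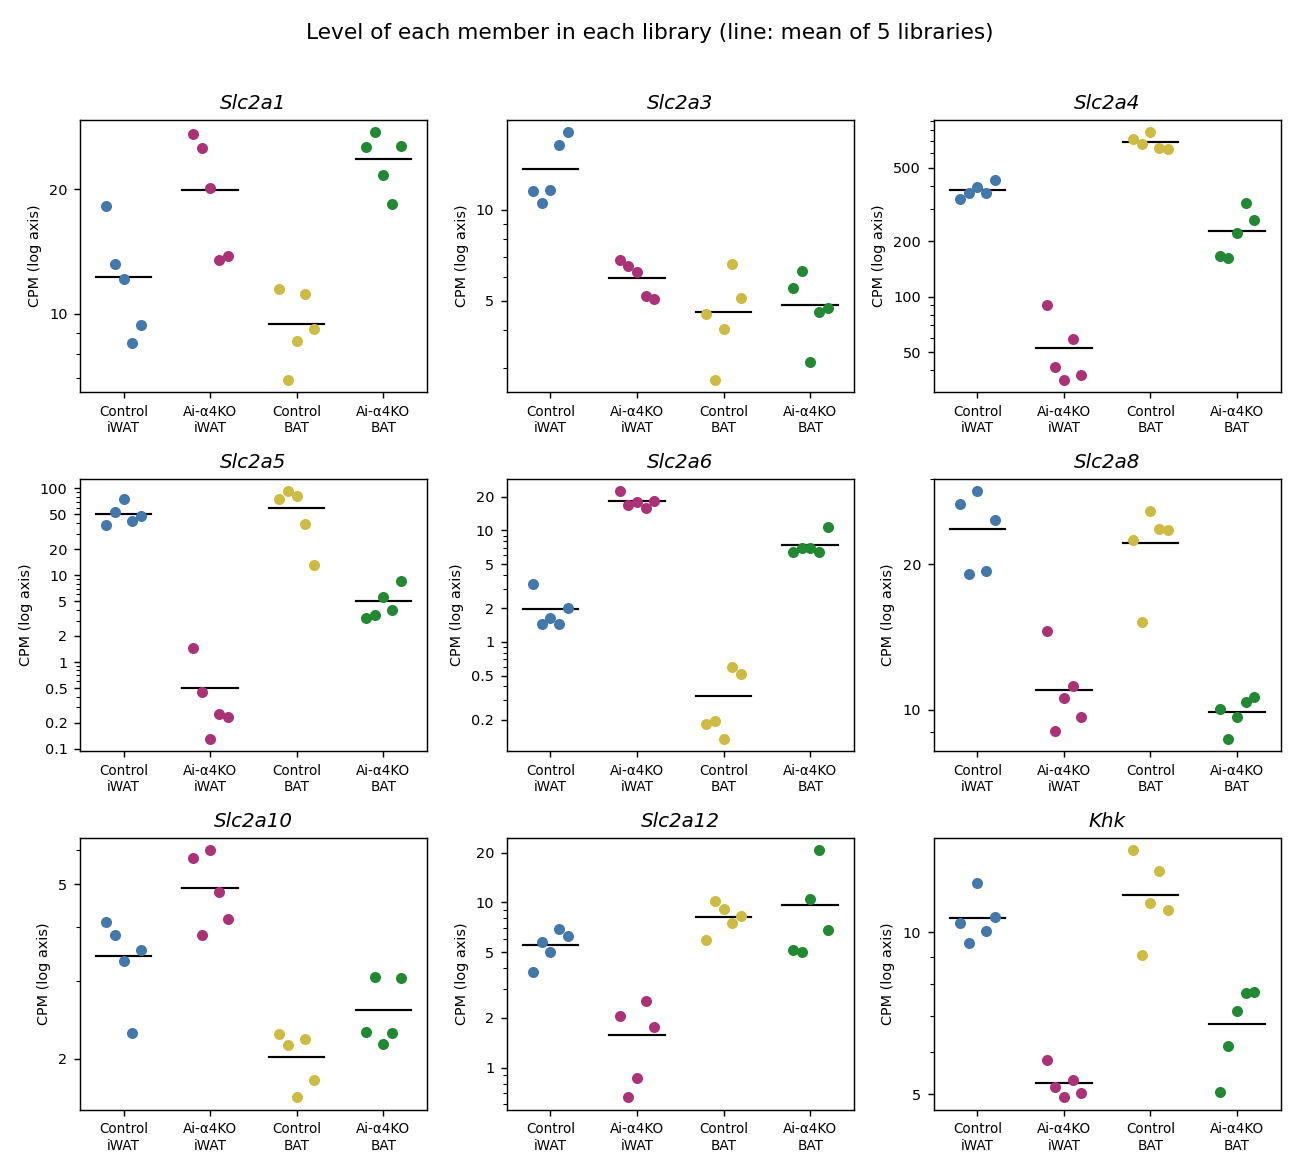
Level of each gene in each library, in CPM on a log axis with its own range per panel; points are libraries 1 to 5 of each group from left to right and the line is their mean. Slc2a4 and Slc2a5 sat lower and Slc2a6 higher in every Ai-α4KO library of both tissues than in any Control library of the same tissue, while Slc2a3 and Slc2a12 did so in iWAT and overlapped in BAT.

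Loss of α4 was followed by 1 higher and 6 lower genes of the 9 in iWAT, where 11.3% of the 14604 genes tested were called higher and 10.7% lower. In BAT 2 of the 9 were higher and 3 lower, beside 18.2% and 13.3% of 14344 genes tested. Slc2a4, Slc2a5 and Slc2a8 fell and Slc2a6 rose in both depots. Slc2a3, Slc2a12 and Khk were called in iWAT and not in BAT, and Slc2a1 in BAT and not in iWAT, and the test of the difference between depots, given further on, called none of these 4. Over the 9 genes the median log2 fold change was -1.11 in iWAT and 0.04 in BAT, and over all genes tested it was 0.01 and -0.03. Without Control iWAT libraries 1 and 4, and with a skeletal muscle marker score as a covariate in either tissue, the counts of called genes were the same. In BAT that score did not overlap between the genotypes, so the covariate cannot fully separate score from genotype there.

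**Figure D2:**
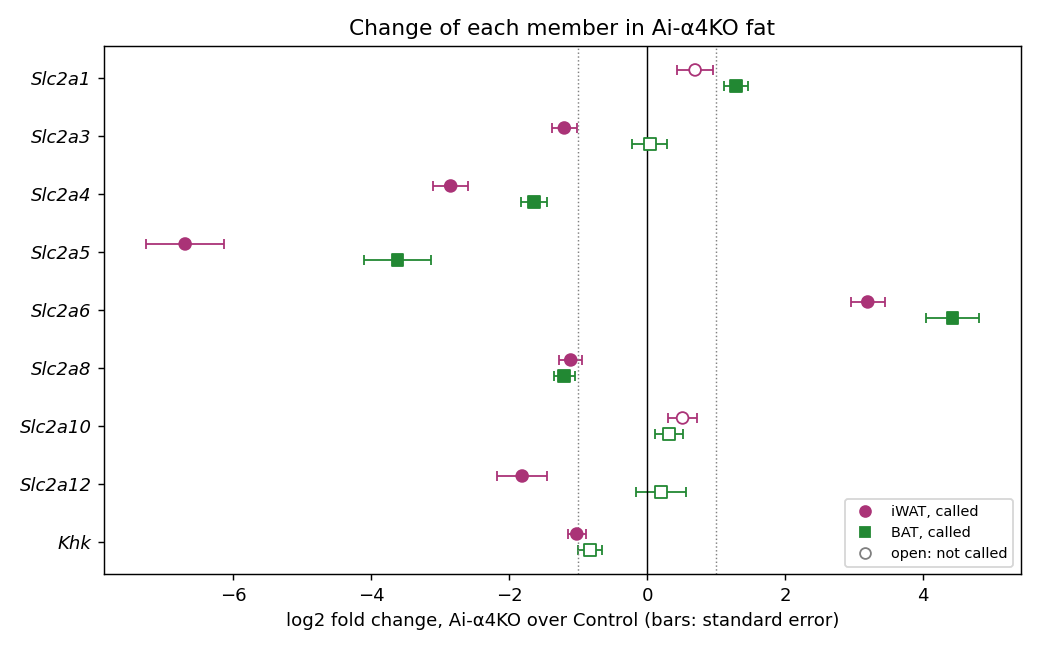
Log2 fold change of Ai-α4KO over Control for each gene in iWAT (circles) and BAT (squares), with the standard error of edgeR's fit as bars; filled symbols passed the thresholds, open ones did not, and dotted lines mark 2-fold changes. Slc2a5 has the largest fall in both tissues, at -6.70 in iWAT and -3.62 in BAT, and Slc2a6 the largest rise, at 3.20 and 4.42.

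The insulin-responsive carriers came first. Slc2a4 lies on chromosome 11 from 69942286 to 69948190 (mm10, minus strand). In iWAT it stood at 339.5, 367, 391, 366 and 430.1 CPM in Control libraries 1 to 5 and at 90.2, 41.3, 35.4, 59.1 and 37.8 CPM in the Ai-α4KO ones. In BAT the Control libraries held 718, 677, 779, 639 and 631 CPM and the Ai-α4KO libraries 166, 163, 222, 323 and 260.2 CPM. The groups were far apart in both tissues, and library 1 of Ai-α4KO iWAT and library 4 of Ai-α4KO BAT were the highest of their groups. The log2 fold change was -2.85 in iWAT (standard error 0.26, edgeR adjusted p = 8.28e-06) and -1.64 in BAT (standard error 0.19, edgeR adjusted p = 1.53e-05). These equal a 7.20-fold and a 3.11-fold fall.

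Within both Ai-α4KO groups the library highest in Slc2a4 was also the highest in markers of skeletal muscle, a tissue that uses GLUT4 as well. Muscle markers had a mean log2 CPM of 8.75 in library 1 of Ai-α4KO iWAT, against -1.41 to 3.23 in the other 4, and of 11.97 in library 4 of Ai-α4KO BAT, against 10.2 to 11.2 in the rest. Library 1 of Ai-α4KO iWAT was also the highest of its group in adipocyte markers, with a mean log2 CPM of 8.82. Library 4, second in Slc2a4 in that group, was second in adipocyte markers at 8.81, against 7.99 to 8.17 in the remaining 3, and lowest in muscle markers. Without library 1 the fall in iWAT was -3.13, and without library 4 the fall in BAT was -1.75. With the muscle score as a covariate the values were -2.84 in iWAT and -1.88 in BAT, both called. In Control fat the libraries highest in muscle markers were library 4 of iWAT, at 8.555, and library 2 of BAT, at 9.72. Neither was the highest of its group in Slc2a4, at 366 and 677 CPM. The part of muscle RNA in the Slc2a4 values was not tested.

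Slc2a12, which encodes GLUT12, a carrier of insulin-sensitive tissues, lies on chromosome 10 from 22645011 to 22703880 (plus strand) and overlaps Tbpl1 on the other strand. Control iWAT libraries held 3.79, 5.72, 4.995, 6.88 and 6.27 CPM of it and Ai-α4KO iWAT libraries 2.06, 0.661, 0.866, 2.54 and 1.76 CPM. There it fell by 1.81 on the log2 scale, with no overlap (standard error 0.36, edgeR adjusted p = 0.00144), and it was not called with limma at a pseudocount of 1, at -0.72. In BAT the Control values were 5.92, 10.1, 9.15, 7.51 and 8.24 CPM, and the Ai-α4KO values were 5.18, 4.97, 10.5, 20.7 and 6.82 CPM. The BAT groups overlapped on both sides, and the log2 fold change of 0.20 (standard error 0.36, edgeR adjusted p = 0.65) did not pass. The 20.7 CPM belonged to library 4, the one highest in muscle markers. Without it the value in BAT was -0.24, and with the muscle score as a covariate it was -0.81, neither of which was called. Beyond these values, the part of muscle RNA in the result was not tested.

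**Figure D3:**
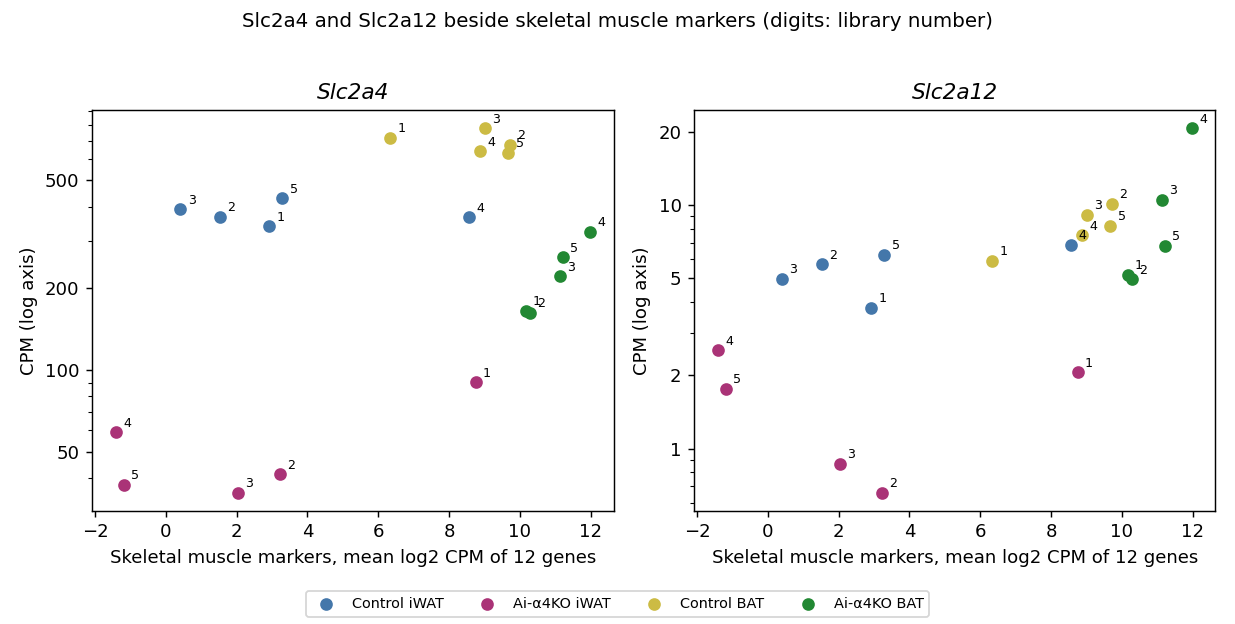
CPM of Slc2a4 and Slc2a12 (log axis) against the mean log2 CPM of 12 skeletal muscle markers, 1 point per library, with library numbers beside the points. Within Ai-α4KO BAT, library 4 is highest in muscle markers, at 11.97, and in both genes, at 323 CPM of Slc2a4 and 20.7 CPM of Slc2a12, while in iWAT the Ai-α4KO libraries lie below the Control libraries over the whole range of muscle markers.

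In the fructose branch the carrier fell in both depots, and the kinase was called lower in iWAT. Slc2a5 stood at 37.9, 52.7, 74.7, 42.3 and 47.6 CPM in Control iWAT libraries and at 1.46, 0.456, 0.131, 0.251 and 0.233 CPM in Ai-α4KO iWAT, where the highest library had 51 counts and the lowest 5. In BAT the Control libraries held 74.3, 92.6, 80.6, 38.5 and 13.1 CPM and the Ai-α4KO libraries 3.25, 3.48, 5.63, 3.93 and 8.61 CPM. The groups did not overlap in either depot, although Control BAT library 5, at 13.1 CPM, came near the 8.61 CPM of the highest Ai-α4KO library. Its log2 fold change was -6.70 in iWAT (standard error 0.57, edgeR adjusted p = 5.89e-06), a 104-fold fall, and without Ai-α4KO library 1, the highest of its group, it was -7.55. In BAT it was -3.62 (standard error 0.49, edgeR adjusted p = 4.81e-05), a 12.3-fold fall.

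Khk lies on chromosome 5 from 30921895 to 30931246 (plus strand), and the table gives 1 value for it, so that its A and C isoforms are not told apart. It ran from 9.54 to 12.3 CPM in Control iWAT and from 4.93 to 5.80 CPM in Ai-α4KO iWAT, with no overlap. The log2 fold change there was -1.02 (standard error 0.13, edgeR adjusted p = 5.84e-05), just past the 2-fold threshold, and leaving out Ai-α4KO library 3 or 5 gave -0.992 and -0.999, not called, as were the values with limma, -0.76 and -0.87 at pseudocounts of 1 and 0.1. In BAT it ran from 9.07 to 14.2 CPM in Control and from 5.04 to 7.73 CPM in Ai-α4KO libraries, again without overlap. The log2 fold change of -0.83 (standard error 0.18, edgeR adjusted p = 0.00148) was under 2-fold and was not called.

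Of the carriers of basal glucose uptake, Slc2a1 was called higher in BAT and Slc2a3 lower in iWAT. Slc2a1 lies on chromosome 4 from 119108745 to 119137329 (plus strand). Control BAT libraries held 11.5, 6.92, 8.61, 11.1 and 9.20 CPM and Ai-α4KO BAT libraries 25.4, 27.5, 21.7, 18.4 and 25.5 CPM. All 5 Ai-α4KO libraries were above all 5 Control libraries, with a log2 fold change of 1.29 (standard error 0.17, edgeR adjusted p = 4.2e-05). In iWAT the values were 18.3, 13.2, 12.2, 8.48 and 9.38 CPM in Control and 27.2, 25.2, 20.2, 13.5 and 13.8 CPM in Ai-α4KO libraries. These overlapped through Control library 1, and the log2 fold change of 0.69 (standard error 0.26, edgeR adjusted p = 0.0407) did not pass.

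Slc2a3 encodes GLUT3, a high-affinity glucose carrier best known from neurons and also present in blood cells, and lies on chromosome 6 from 122727809 to 122742745 (minus strand). In iWAT it ran from 10.6 to 18.05 CPM in Control and from 5.08 to 6.80 CPM in Ai-α4KO libraries, a log2 fold change of -1.20 (standard error 0.18, edgeR adjusted p = 0.000249). It was not called there with limma at pseudocounts of 1 and 0.1, at -0.71 and -0.998. Control BAT stood at 4.60 ± 1.43 CPM (SD, n = 5) and Ai-α4KO BAT at 4.86 ± 1.18 CPM (SD, n = 5), with a log2 fold change of 0.04 (standard error 0.25, edgeR adjusted p = 0.904). The BAT libraries overlapped over most of their range, and the sign of that small difference turned when single libraries were left out.

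Carriers that act mainly inside the cell included the member that rose most. Slc2a6 encodes GLUT6, a carrier of lysosomal membranes that is abundant in leukocytes. Control iWAT libraries held 3.28, 1.46, 1.65, 1.45 and 2.02 CPM and Ai-α4KO iWAT libraries 22.5, 16.9, 17.8, 15.9 and 18.2 CPM. In BAT the Control libraries held 0.182, 0.195, 0.136, 0.599 and 0.518 CPM, that is 3 to 17 counts, and the Ai-α4KO libraries 6.34, 6.92, 6.94, 6.37 and 10.6 CPM. In both tissues the lowest Ai-α4KO library was several times the highest Control library. The log2 fold change was 3.20 in iWAT (standard error 0.25, edgeR adjusted p = 3.87e-06) and 4.42 in BAT (standard error 0.38, edgeR adjusted p = 1.36e-06). In BAT the gene passed the filter on low counts through its Ai-α4KO libraries. With 3 to 17 counts in the Control libraries, the size of that fold is uncertain.

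Slc2a8 encodes GLUT8, a hexose carrier of internal membranes, and lies on chromosome 2 from 32972989 to 32982056 (minus strand). It ran from 19.1 to 28.3 CPM in Control iWAT and from 9.02 to 14.6 CPM in Ai-α4KO iWAT. In BAT it ran from 15.2 to 25.7 CPM in Control and from 8.72 to 10.6 CPM in Ai-α4KO libraries. The fall was close to the same size in both depots, at -1.11 in iWAT (standard error 0.17, edgeR adjusted p = 0.000215) and -1.20 in BAT (standard error 0.15, edgeR adjusted p = 3.39e-05), without overlap. Without TMM factors the values were -0.98 and -0.94, under 2-fold and not called, and limma at either pseudocount called it in neither depot, at -0.85 and -0.96 in iWAT and -0.78 and -0.90 in BAT.

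Slc2a10 encodes GLUT10, a carrier of endoplasmic reticulum membranes best known from arterial wall disease, and lies on chromosome 2 from 165503897 to 165519917 (plus strand). Control iWAT stood at 3.42 ± 0.697 CPM (SD, n = 5) against 4.91 ± 0.945 CPM after α4 loss (SD, n = 5), a log2 difference of 0.51 that did not pass (edgeR adjusted p = 0.0563). Control BAT stood at 2.01 ± 0.286 CPM (SD, n = 5) against 2.58 ± 0.451 CPM after α4 loss (SD, n = 5), a log2 difference of 0.32 (edgeR adjusted p = 0.191). The groups overlapped in both depots.

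The make-up of the carrier pool shifted with these changes. Summed over the 8 carriers, FPKM in iWAT was 156 ± 9.67 with α4 (SD, n = 5) and 43.0 ± 12.3 without it (SD, n = 5). The BAT sums were 218 ± 19.3 for Control (SD, n = 5) and 93.9 ± 17.9 for Ai-α4KO mice (SD, n = 5). With Slc2a4 left out of the sum, the values were 35.3 and 24.6 in iWAT and 29.1 and 21.5 in BAT. Slc2a4 held 74.1% to 79.6% of the sum in Control iWAT and 33.5% to 49.6% in Ai-α4KO iWAT, and in BAT its share was 84.5% to 90.6% in Control and 71.5% to 82.8% in Ai-α4KO libraries. The share of Slc2a6 went from 0.539% to 20.1% in iWAT and that of Slc2a1 from 2.79% to 17.9%, as means of 5 libraries. In BAT Slc2a1 went from 1.32% to 9.46% and Slc2a6 from 0.0574% to 3.45%. Slc2a5 had a mean share of 9.43% in Control iWAT, against 0.324% after α4 loss. The order of FPKM in Ai-α4KO iWAT was Slc2a4 at 18.4, Slc2a6 at 8.39, Slc2a1 at 7.62, Slc2a8 at 5.18, Khk at 4.60, Slc2a3 at 1.48, Slc2a10 at 1.40, Slc2a12 at 0.413 and Slc2a5 at 0.162. There each gene overlapped the next except Slc2a4, Khk and Slc2a10, which lay above the next without overlap. In Ai-α4KO BAT Slc2a4 at 72.4 was followed by Slc2a1 at 8.45, and from Slc2a1 down to Slc2a10 each gene overlapped the next.

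**Figure D4:**
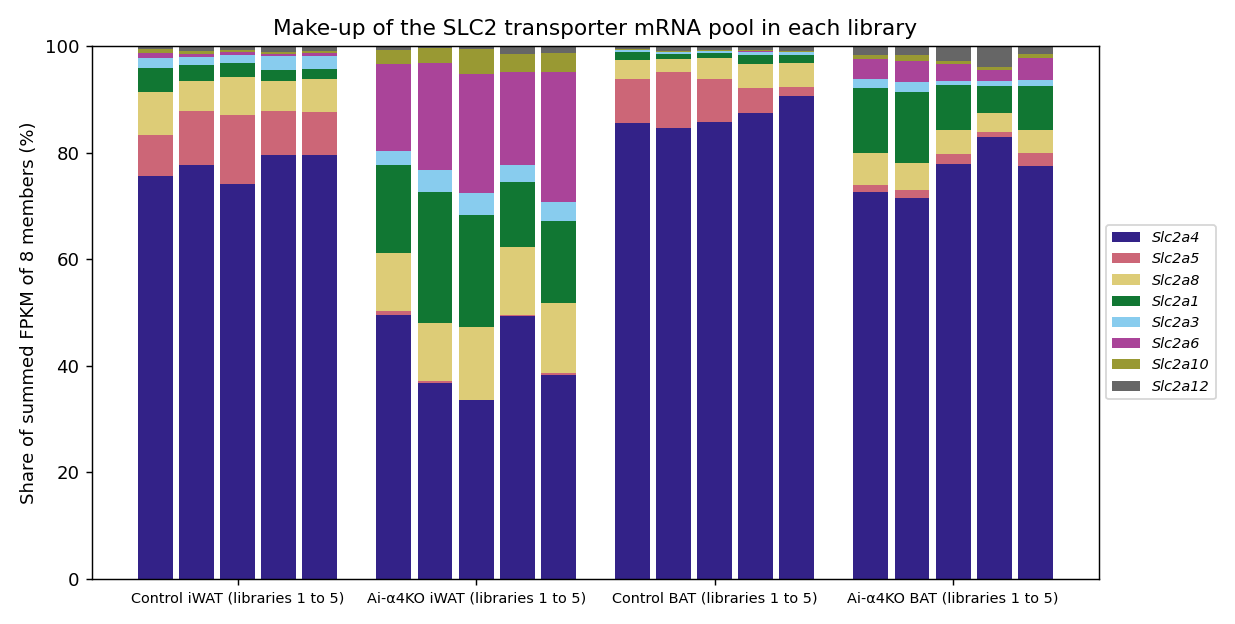
Share of each carrier in the summed FPKM of the 8 carriers, in percent, 1 stacked bar per library. The Slc2a4 share is lower and the Slc2a1 and Slc2a6 shares are higher in Ai-α4KO than in Control bars, with Slc2a6 at 20.1% and Slc2a1 at 17.9% on average in Ai-α4KO iWAT.

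To set these changes beside the shift in adipocyte and macrophage markers, the log2 CPM of each gene was taken relative to the mean log2 CPM of each marker list. Relative to adipocyte markers in iWAT, Slc2a4 differed by -1.18 and Slc2a5 by -5.12 on the log2 scale, without overlap (p = 0.0079 each in a two-sided exact permutation test, which with 5 against 5 libraries can give no smaller p). These are 2 of the 9 genes, where 0.753% of all genes tested lay lower without overlap and 77.1% higher. Slc2a1, Slc2a6, Slc2a10 and Khk, 4 of the 9, lay higher, and Slc2a3, Slc2a8 and Slc2a12 overlapped. In BAT none of the 9 genes lay lower without overlap, beside 0.858% of all genes, and 4 lay higher, Slc2a1, Slc2a3, Slc2a6 and Slc2a10, beside 70.2%. Slc2a8, Slc2a12 and Khk overlapped. Slc2a4 in BAT differed by -0.10 relative to adipocyte markers, with overlap (exact permutation test, two-sided, p = 0.81). Slc2a5 in BAT differed by -1.83 with overlap (exact permutation test, two-sided, p = 0.04), and without Control library 5 the groups no longer overlapped, at -2.34.

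Relative to macrophage markers, Slc2a6 was higher by 1.27 on the log2 scale in Ai-α4KO iWAT, and the groups were separate (p = 0.0079, two-sided exact permutation test), the only member of the 9 to lie higher, where 0.89% of all genes did. The other 8 lay lower in both depots, beside 83.2% of all genes in iWAT and 89.2% in BAT. In BAT Slc2a6 differed by 0.86 with overlap (exact permutation test, two-sided, p = 0.032), so no member lay higher there, beside 0.906% of all genes.

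**Figure D5:**
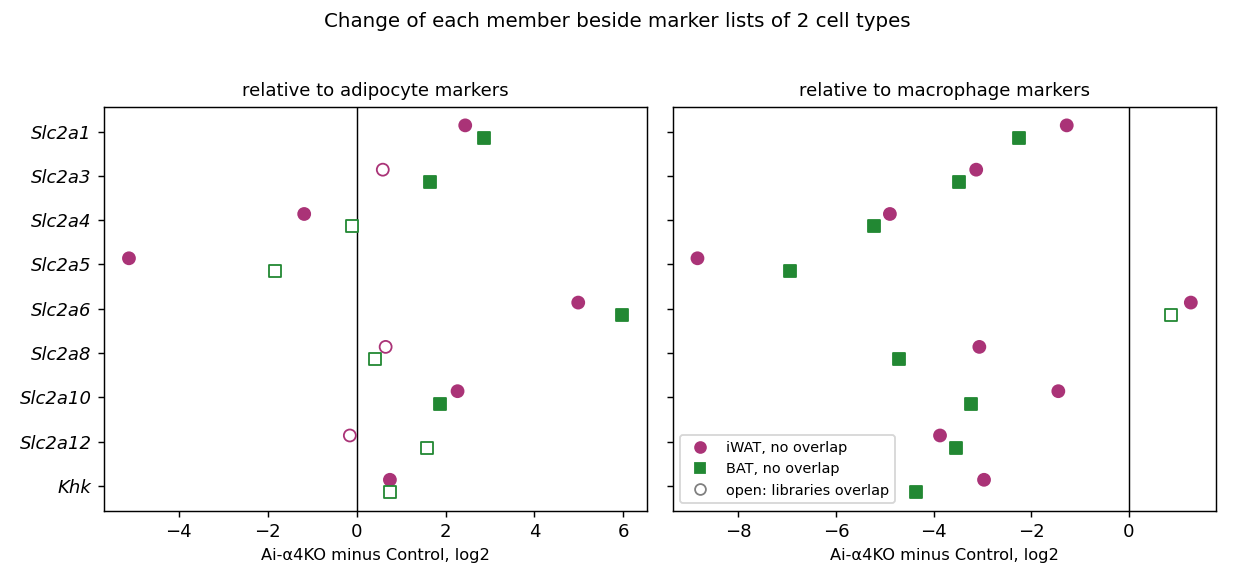
Difference between Ai-α4KO and Control in log2 CPM relative to the mean of 14 adipocyte markers (left) or 12 macrophage markers (right), for iWAT (circles) and BAT (squares); filled symbols mark groups of 5 libraries that do not overlap. On the left Slc2a5 in iWAT stands farthest to the left at -5.12 and Slc2a4 in BAT is near 0, at -0.10, and on the right Slc2a6 alone is above 0, at 1.27 in iWAT and 0.86 in BAT.

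Between the depots of Control mice, 2 of the 9 genes were lower in BAT than in iWAT and none was higher, beside 15.4% and 7.34% of 15230 genes tested. Slc2a6 was lower by 2.56 (standard error 0.34, edgeR adjusted p = 4.61e-06) and Slc2a3 by 1.57 (standard error 0.23, edgeR adjusted p = 1.2e-05) on the log2 scale. Slc2a4 was higher in all BAT libraries, but its log2 difference of 0.86 (edgeR adjusted p = 0.00342) was under 2-fold, as was that of Slc2a10, at -0.76 (edgeR adjusted p = 0.00285). Slc2a5, Slc2a8, Slc2a1, Slc2a12 and Khk overlapped between the Control depots.

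In Ai-α4KO mice 3 of these genes were higher and 1 lower in BAT than in iWAT, beside 8.54% and 4.09% of all genes tested. These counts are not a test against the Control depots, which the interaction below gives. Slc2a5 was higher by 3.33 (edgeR adjusted p = 0.000173), Slc2a12 by 2.60 (edgeR adjusted p = 6.57e-05) and Slc2a4 by 2.10 (edgeR adjusted p = 2.6e-06), and Slc2a6 was lower by 1.30 (edgeR adjusted p = 0.00136), all as log2 values. Slc2a10 at -0.93 was under 2-fold (edgeR adjusted p = 0.000923), and Slc2a1 at 0.25, Slc2a3 at -0.29, Slc2a8 at -0.15 and Khk at 0.36 were not called, with overlap between the depots. With the muscle score as a covariate Slc2a4 was called, at 1.62, and Slc2a5 at 2.72, Slc2a12 at 2.26 and Slc2a6 at -1.51 were of like size and direction but not called, in a fit that called 268 genes higher and 56 lower against 1301 and 623 without the score.

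The difference of the genotype effect between depots was tested as an interaction, given as the log2 fold change in BAT minus that in iWAT. It was called for 1 of the 9 genes as positive and for none as negative, beside 3.26% and 1.6% of 15230 genes. The gene was Slc2a5, at 3.10 (standard error 0.73, edgeR adjusted p = 0.00882), whose fall was smaller in BAT. That call did not hold without Control iWAT libraries 1 and 4 (3.42, edgeR adjusted p = 0.0115), with the muscle score (2.97, edgeR adjusted p = 0.0133), or when any 1 of 14 of the 20 libraries was left out, and over all 20 such omissions the value ran from 2.85 to 4.07. The call was also lost with a replicate block, at 3.32, and with limma at a pseudocount of 1, at 1.245. Slc2a3 at 1.28 (edgeR adjusted p = 0.0119), Slc2a4 at 1.24 (edgeR adjusted p = 0.0142) and Slc2a12 at 2.04 (edgeR adjusted p = 0.017) missed the threshold, and DESeq2 called all 3 of them. Slc2a6 at 1.26 (edgeR adjusted p = 0.0553), Slc2a1 at 0.62 (edgeR adjusted p = 0.188), Khk at 0.22, Slc2a8 at -0.06 and Slc2a10 at -0.16 were not called.

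Other genes of sugar transport and handling were read from lists chosen for their roles, and their counts stand beside the shares of all genes tested, which for higher genes were 11.3% in iWAT and 18.2% in BAT, and for lower genes 10.7% and 13.3%. Of the 4 remaining SLC2 genes 2 were tested, and neither was called in either depot, although 1 was called lower in iWAT with DESeq2, with upper-quartile scaling, with the muscle score or without Control iWAT libraries 1 and 4, and 1 was called higher in BAT without TMM factors. Slc2a9, a urate and hexose carrier, was at 0.87 in iWAT (edgeR adjusted p = 0.000539) and 0.75 in BAT (edgeR adjusted p = 0.0118), under 2-fold in both. Slc2a13, a proton-coupled inositol carrier, was at -1.01 in iWAT (edgeR adjusted p = 0.0103) and -0.03 in BAT. Slc2a2 and Slc2a7 did not pass the filter on low counts, with at most 0.318 CPM in any library. Of 8 sodium-coupled and SWEET sugar transporters only Slc50a1 was tested, and it was not called.

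Of 7 hexose-phosphorylating enzymes tested, 1 was higher and 1 lower in each depot, counts near the shares of all genes. Hk2, the hexokinase of insulin-sensitive tissue, fell by 1.30 in iWAT (edgeR adjusted p = 0.000662) and by 1.22 in BAT (edgeR adjusted p = 4.38e-05) on the log2 scale, and in BAT it was not called with the muscle score as a covariate, at -0.999, without TMM factors, at -0.97, or with limma at either pseudocount. Hk3, the hexokinase of myeloid cells, rose by 1.63 in iWAT (edgeR adjusted p = 0.000222) and by 3.64 in BAT (edgeR adjusted p = 1.77e-06), and its interaction of 2.04 was called (edgeR adjusted p = 0.00353), though not with a replicate block, at 2.03, or with limma at a pseudocount of 1, at 0.77. Of the 12 macrophage markers 9 were called higher in the interaction, with a median of 1.71, and their part in the Hk3 result was not tested. In the fructose and polyol list 3 of 8 tested genes fell in iWAT and 1 in BAT, Khk counted among them in iWAT, and the count in BAT ran from 0 to 2 when single libraries were left out. The count in iWAT was 0 and 1 with limma at pseudocounts of 1 and 0.1, and that in BAT was 0 with limma or without TMM factors and 2 with a replicate block or the muscle score. Dak, which encodes the triokinase that acts after aldolase on glyceraldehyde, fell in both, by 1.13 in iWAT (edgeR adjusted p = 0.000288) and by 1.06 in BAT (edgeR adjusted p = 0.000138). The call of Dak in BAT was lost without TMM factors, at -0.79, and without Control library 3 or Ai-α4KO library 4, at -0.986 and -0.993, and limma at either pseudocount called it in neither depot. The median log2 fold change of that list was -0.51 in iWAT and -0.83 in BAT, beside 0.01 and -0.03 over all genes tested.

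Of 24 genes that move GLUT4 vesicles, 7 were called in iWAT, 3 of them higher, and 5 in BAT, 1 of them higher. These counts lie near the shares of all genes, or below them for higher genes in BAT. Their median log2 fold changes were -0.20 and -0.12. Among those that fell in both were Ralgapa2, a subunit of the RalA GTPase-activating complex, at -2.18 in iWAT and -2.17 in BAT, Sort1, the vesicle sorting receptor sortilin, at -1.54 and -1.21, and Tusc5, also an adipocyte marker here, at -1.40 and -1.78. Sort1 was not called in BAT without TMM factors, at -0.93, or with limma at either pseudocount, at -0.91 and -0.95. Stxbp3a, which encodes the syntaxin partner Munc18c, rose by 1.15 in iWAT and 1.05 in BAT, and in BAT it was not called without Control library 5, at 0.97, or Ai-α4KO library 2, at 0.998. These 4 named genes each had an edgeR adjusted p of at most 0.00271 in each depot. Tbc1d4, the Akt substrate AS160 that holds GLUT4 vesicles back, was singled out after its values were seen, at -0.05 in iWAT and 0.04 in BAT, not called in either.

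Among 13 tested regulators of sugar carriers, 3 rose and 5 fell in iWAT, and 2 rose and 5 fell in BAT, with medians of -0.66 and -0.51. The 2 higher in BAT are near the share of all genes. Mlxipl, which encodes the sugar-sensing factor ChREBP, fell by 2.13 in iWAT (edgeR adjusted p = 8.12e-06) and by 2.04 in BAT (edgeR adjusted p = 1.55e-06). Klf15 was at -2.37 and -1.38, Cebpa at -1.65 and -1.84 and Pparg at -1.38 and -1.63 in iWAT and BAT, all called lower, while Myc was at 1.11 and 1.26, called higher. Myc was not called in BAT with the muscle score as a covariate, at 0.96, where no regulator was called higher, nor in iWAT without Control library 5, at 0.996, where the 3 higher became 1.

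The genes whose pattern over the 20 libraries was most like that of each member were found by the root mean square difference in log2 CPM after centring, among 15230 genes. For Slc2a5 they were Thrsp at 0.633, Sorcs2 at 1.07 and Fasn at 1.09, where the median over all genes was 3.01. Thrsp and Fasn belong to fatty acid synthesis, and Thrsp went from 2242 to 45.0 CPM in iWAT and from 3899 to 274 CPM in BAT. Nearest to Slc2a4 were Ldhd at 0.344, Tmem143 at 0.356 and Pdk1 at 0.373, against a median of 1.54. Nearest to Slc2a6 were Oas3 at 0.430, Itgax at 0.438 and Dpep2 at 0.441, against a median of 2.25, and Itgax is 1 of the 12 macrophage markers. Cdnf at 0.337, Pm20d2 at 0.350 and Krba1 at 0.442 were nearest to Slc2a12, against a median of 1.29. Slc2a8 was nearest to Dak, at 0.166, and Khk to Ddrgk1, at 0.149. Slc2a1 lay closest to Aprt at 0.241, Slc2a3 to Kctd17 at 0.334 and Slc2a10 to Adam15 at 0.227. The 20 points share their libraries, groups and depth, and a small difference describes these libraries only.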

How the data were processed

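RNA was measured in 20 libraries, 5 for each of Control and Ai-α4KO iWAT and BAT, made with a stranded mRNA kit and read as 150 bp pairs. The submitters' processing notes name bcl2fastq 2, STAR 2.5.3a and mm10, and the counting tool and annotation are not given in the sources used here. The authors deposited estimated counts per gene, of which 76.6% of those above 0 were whole, and these were rounded for the tests. The authors also deposited FPKM, scaled by depth and transcript length, which was used for levels between genes, for their sums and shares, and for the limma alternatives.

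Genes were filtered with filterByExpr, scaled by TMM and tested by quasi-likelihood in edgeR 4.0.16 (R 4.3.3), and p-values were adjusted after Benjamini and Hochberg over all genes tested. Fits were made within each tissue for the genotype effect and over all 20 libraries for the depots and the interaction, which was called on an adjusted p below 0.01 alone. Log2 CPM had a prior count of 2. Levels relative to marker lists were compared by an exact permutation test over 252 arrangements with unadjusted p-values, in place of the adjustment over the 9 genes first planned. The fits were tested on simulated data. No replicate pair agreed within sampling noise (chi-square per gene of at least 33.4 over 40 pairs). Nothing in the labels says that libraries of a group came from separate mice, and p-values measure the spread between libraries, which may be technical.

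The 9 genes and all lists were chosen with earlier results of these data known. All 9 genes were named in every comparison, and from each other list the genes called in the same direction in both tissues or by the interaction, at most 5 by mean absolute log2 fold change. A gene that this rule names is not reported here. Alternatives were DESeq2 1.42.0, limma 3.58.1 on log2 FPKM with a pseudocount of 1 or 0.1, other scalings and filters, a replicate block, a muscle covariate and the omission of libraries.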

Additional observations from a re-analysis of the deposited data

Results flagged for a closer look

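Of 36 sets of 5 libraries examined, one for each gene and group, 2 held a library set apart from the other 4, where chance alone sets apart about 1 in 20. Slc2a6 was at 10.6 CPM in Ai-α4KO BAT library 5, against 6.34 to 6.94 CPM in the other 4. Slc2a8 was at 15.2 CPM in Control BAT library 2, against 22.5 to 25.7 CPM in the other 4. The genotype effect on Slc2a5 differed between depots by 3.10 on the log2 scale (edgeR adjusted p = 0.00882), with the fall larger in iWAT. That call was lost in 14 of 20 omissions of a single library, with a replicate block (3.32), with the muscle score (2.97) and without Control iWAT libraries 1 and 4 (3.42). Limma at a pseudocount of 1 also did not call it, at 1.245.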

How the results depend on the processing

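Without TMM factors the median log2 value of all genes moved by 0.12 in iWAT, 0.26 in BAT, 0.11 in the interaction, -0.23 between Control depots and -0.11 between Ai-α4KO depots, and the BAT split went from 2614 higher and 1910 lower genes to 3251 and 1265. The counts of 1 higher and 6 lower genes in iWAT became 1 and 2 with limma on log2(FPKM + 1) and 1 and 3 with a pseudocount of 0.1, and 5 to 6 were lower when single libraries were left out. Without TMM factors 4 were lower in iWAT, where Slc2a8 at -0.98 and Khk at -0.90 were under 2-fold, and 2 in BAT, where Slc2a8 was at -0.94. With limma at either pseudocount 2 were lower in BAT as well. In BAT the 2 higher genes became 1 when at least 10 counts were required in every library, which removes Slc2a6. The interaction count of 1 became 4 with DESeq2 or at an adjusted p below 0.05, 3 with at least 10 counts, 2 without TMM factors, with upper-quartile scaling or with limma at either pseudocount, and 0 with the muscle covariate or without Control iWAT libraries 1 and 4, and ran from 0 to 3 over single omissions. Slc2a5 was not among the genes called with at least 10 counts, which removes it, or with limma at a pseudocount of 1, at 1.245. Between Control depots the 2 lower genes became 1 with at least 10 counts or limma at a pseudocount of 1. Between Ai-α4KO depots the 1 lower gene became 2 without TMM factors, 0 with at least 10 counts and 0 with the muscle covariate, where the 3 higher became 1 although Slc2a5 at 2.72, Slc2a12 at 2.26 and Slc2a6 at -1.51 kept their direction and like size. Relative to adipocyte markers in BAT, single omissions gave 4 to 7 higher and 0 to 1 lower, and relative to macrophage markers 0 to 1 higher. Against Adipoq alone, Slc2a3 at 1.09 and Slc2a8 at 1.15 in iWAT no longer overlapped. Slc2a8 at 1.02 and Slc2a12 at 2.19 in BAT no longer did so either.

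Library numbers did not pair the samples, since same-numbered libraries correlated from -0.451 to 0.244 in their deviations. With a replicate block the counts in iWAT (1 and 6) and BAT (2 and 3) were the same, the interaction count was 0, and Slc2a12 in BAT was at -0.0057.

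The values that changed sign were all of uncalled results, and their cause was not tested. Slc2a12 relative to adipocyte markers in iWAT was 0.35 against Adipoq alone, 0.069 on log2(FPKM + 0.1) and -0.29 to 0.042 over single omissions. Slc2a4 relative to adipocyte markers in BAT was 0.51 against Adipoq alone and -0.29 to 0.17 over omissions. In BAT Slc2a12 was -0.81 with the muscle covariate and -0.24 to 0.37 over omissions, and Slc2a3 was -0.11 to 0.20. In the interaction Slc2a6 was -0.48 with limma at a pseudocount of 1, and Slc2a10 was 0.015 without Control iWAT libraries 1 and 4 and -0.23 to 0.013 over omissions. Slc2a8 there was 0.042 without TMM factors, 0.020 with upper-quartile scaling, 0.076 with at least 10 counts, 0.073 with limma at pseudocount 1, 0.067 at 0.1, 0.075 without Control iWAT libraries 1 and 4 and -0.17 to 0.17 over omissions. Between Control depots Slc2a5 was -0.0019 without TMM factors, -0.19 and -0.23 with limma at pseudocounts of 1 and 0.1 and -0.25 with the muscle covariate, Khk was -0.073, -0.068 and -0.077 under the same scaling and limma settings, and Slc2a8 was -0.16 to 0.015 over omissions. Between Ai-α4KO depots Slc2a8 was -0.17 to 0.094 over omissions. Depth limits Slc2a5 in Ai-α4KO iWAT (5 to 51 counts) and Slc2a6 in Control BAT (3 to 17 counts).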
